A study of Mus musculus with 18 samples.

Results

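Six3, Six6, Otx1, Otx2, Lhx2, Rax, Hesx1, Emx2 and Nkx2-1 are 9 genes that encode homeodomain transcription factors of the forebrain and the eye field. They were taken by symbol from the 37224 genes of the count table, as a list of known forebrain and eye field genes that was drawn up with earlier results of these data known, and are described over all 6 groups of 3 libraries. The libraries came from cells differentiated from mouse embryonic stem cells of strain C57BL/6. 4 groups were neural progenitors, namely progenitors with Hoxb1 and SAG, progenitors with SAG, progenitors with Hoxb1, and progenitors with neither, which are called untreated here. Hoxb1 is a Hox gene of the anterior hindbrain, and SAG is an agonist of Smoothened, the membrane protein that switches on hedgehog signalling. The progenitors with Hoxb1 had received doxycycline (DOX) and the others had not, so that Hoxb1 and doxycycline cannot be told apart. The remaining 2 groups were Hoxb1-null and wild-type neuromesodermal progenitors (NMPs), cells of the caudal embryo that can form spinal cord and paraxial mesoderm. Whether the 3 libraries of a group came from separate cultures, and whether groups share a line or clone, is not stated, so p-values measure the spread between libraries, which may be technical.

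In the mouse embryo Otx2 sets the anterior neural plate apart from the posterior neural plate, and Six3 acts within it to keep posteriorising Wnt signals out. Rax, Six3, Six6 and Lhx2 are expressed together in the eye field, the patch of anterior neural plate from which the optic vesicles grow, while Emx2 marks dorsal telencephalon and Nkx2-1 marks the ventral forebrain and hypothalamus, where hedgehog signalling induces it. Hox genes are silent in forebrain and midbrain, and most of the forebrain program is in turn low or absent in Hox-expressing hindbrain and trunk.

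Total counts ranged from 13301476 to 26974315 per library, and progenitor libraries with SAG (22610407 to 26974315) were deeper than those without it (13301476 to 14505711). Hoxb1 itself stood at 592 ± 21 CPM (counts scaled to a common library size with TMM factors) with Hoxb1 and SAG against 0.459 ± 0.066 CPM with SAG, at 323 ± 16 CPM with Hoxb1 against 0.358 ± 0.288 CPM in untreated progenitors, and at 15.3 ± 0.84 CPM in null NMPs against 254 ± 16 CPM in wild-type NMPs (SD, n = 3 each). Ptch1, which encodes the hedgehog receptor and is a feedback target, was 2.22-fold higher with SAG than in untreated progenitors. Gli1, another feedback target, was not called there (138 ± 10 CPM with SAG against 153 ± 9.6 CPM untreated, edgeR adjusted p = 0.161), whereas among progenitors with Hoxb1 it was 2.44-fold higher with SAG. Library numbers fall into separate series for progenitors with SAG, progenitors without SAG and NMPs. SAG and cell kind thus cannot be told apart from the library set. Each Hoxb1 comparison lies within 1 such series of numbers, which does not name a sequencing run. Sox2, a marker of neural progenitors, averaged 391 to 620 CPM in the progenitor groups, and Sox1, another, averaged 99.5 to 280 CPM there against 0.597 CPM in null and 0.339 CPM in wild-type NMPs.

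The DNA just before a start site of 3 of these genes is shown because they stand for the patterns described further on. Nkx2-1 had the largest rise with SAG, Six3 fell with Hoxb1 in both SAG settings, and Otx2 was the most abundant member per kilobase. Each line gives the 250 bases before a RefSeq start site in GRCm38.p6 (chr12:56536909-56537158 on the minus strand for Nkx2-1, chr17:85620584-85620833 on the plus strand for Six3, chr14:48665110-48665359 on the minus strand for Otx2), read 5′ to 3′ along the gene. The capitals in the Otx2 line mark a match to the OTX site TAATCC, read on the other strand and lying at -211 to -206 from the start. The Otx2 window is the one of its 4 that held this match. The Nkx2-1 window adjoins the gene as annotated in the count table, while the Six3 and Otx2 windows lie inside the annotated genes and so precede internal start sites.
Nkx2-1: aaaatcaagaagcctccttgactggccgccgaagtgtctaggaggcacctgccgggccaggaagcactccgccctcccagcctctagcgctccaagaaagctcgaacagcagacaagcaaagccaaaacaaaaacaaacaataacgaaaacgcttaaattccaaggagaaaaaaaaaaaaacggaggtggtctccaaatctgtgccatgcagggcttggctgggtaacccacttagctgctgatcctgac
Six3: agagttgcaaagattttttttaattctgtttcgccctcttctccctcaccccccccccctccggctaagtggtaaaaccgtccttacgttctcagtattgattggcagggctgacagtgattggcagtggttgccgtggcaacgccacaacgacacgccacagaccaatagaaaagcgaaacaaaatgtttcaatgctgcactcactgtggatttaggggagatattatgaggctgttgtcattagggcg
Otx2: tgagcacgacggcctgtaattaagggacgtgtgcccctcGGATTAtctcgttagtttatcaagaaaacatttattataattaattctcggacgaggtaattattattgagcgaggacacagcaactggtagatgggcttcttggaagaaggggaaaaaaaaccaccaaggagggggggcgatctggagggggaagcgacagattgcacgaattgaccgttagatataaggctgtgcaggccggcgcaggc
RefSeq windows of 250 bases before to 50 bases after the start were matched for 7 of the 9 genes, 11 windows in all with 4 at Otx2, of which a pair overlap. Otx1 and Rax were not matched. On either strand, 0 of the 11 windows held TGATNNAT, the pattern of a paired Hox and Pbx site, which 8.85% of 32851 promoters held. 0 held GACCACCCA, the pattern bound by Gli proteins, which 0.253% of all promoters held. 1 window held TAATCC, against 7.06% of all promoters. These are matches of letters in short windows and say nothing of binding.

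Most of these transcripts were more abundant in untreated neural progenitors than in wild-type NMPs. Hesx1 did not share this, with 4 counts in untreated progenitors against 12 counts in wild-type NMPs. All 8 genes that passed the filter on low counts (edgeR's filterByExpr, which removed Hesx1) were higher in untreated progenitors than in wild-type NMPs, where 43.7% of the 16761 genes tested over all 18 libraries were higher. Six3, Six6, Rax and Nkx2-1 had 1, 2, 1 and 2 counts in wild-type NMPs and passed the filter only through progenitor libraries. The count of 8 is thus partly set by the filter and is given as a description. Otx2 averaged 209.3 ± 7.9 CPM in untreated progenitors against 12.8 ± 1.4 CPM in wild-type NMPs, and Otx1 averaged 115.6 ± 4.4 CPM against 4.13 ± 0.29 CPM. Emx2 had the smallest contrast, 18.1 ± 0.95 CPM in untreated progenitors against 5.75 ± 0.20 CPM in wild-type NMPs (log2 fold change 1.66, SE 0.10, edgeR adjusted p = 5.74e-20). Six3 had 1949 counts in untreated progenitors against 1 count in the 3 wild-type NMP libraries together, a ratio of CPM of 2394 with a 95% exact interval of 429 to 94596. That interval, like the others given here, covers counting error only.

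Per kilobase of summed exon length, the scale on which genes can be compared, the members kept a steep order within untreated progenitors. Otx2 stood at 61.6 ± 2.3 CPM per kb, Otx1 at 21.3 ± 0.81, Lhx2 at 14.4 ± 0.55, Emx2 at 6.74 ± 0.35, Six3 at 5.32 ± 0.24 and Six6 at 3.04 ± 0.56 CPM per kb. Nkx2-1, Rax and Hesx1 lay far below them, at 0.623 ± 0.13, 0.227 ± 0.066 and 0.0823 ± 0.094 CPM per kb. With SAG, Otx2 was at 41.6 ± 1.3 CPM per kb and Nkx2-1 came next at 35.2 ± 1.5, ahead of Lhx2 at 11.1 ± 0.47 and Otx1 at 7.07 ± 0.060. With Hoxb1 and SAG, Otx2 was at 20.2 ± 0.49 CPM per kb, and Lhx2, Nkx2-1 and Otx1 followed close together at 3.98 ± 0.22, 3.35 ± 0.51 and 3.12 ± 0.25. The summed exon length counts every annotated exon, so the value of a gene with long, little-used exons is understated.

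**Figure D1:**
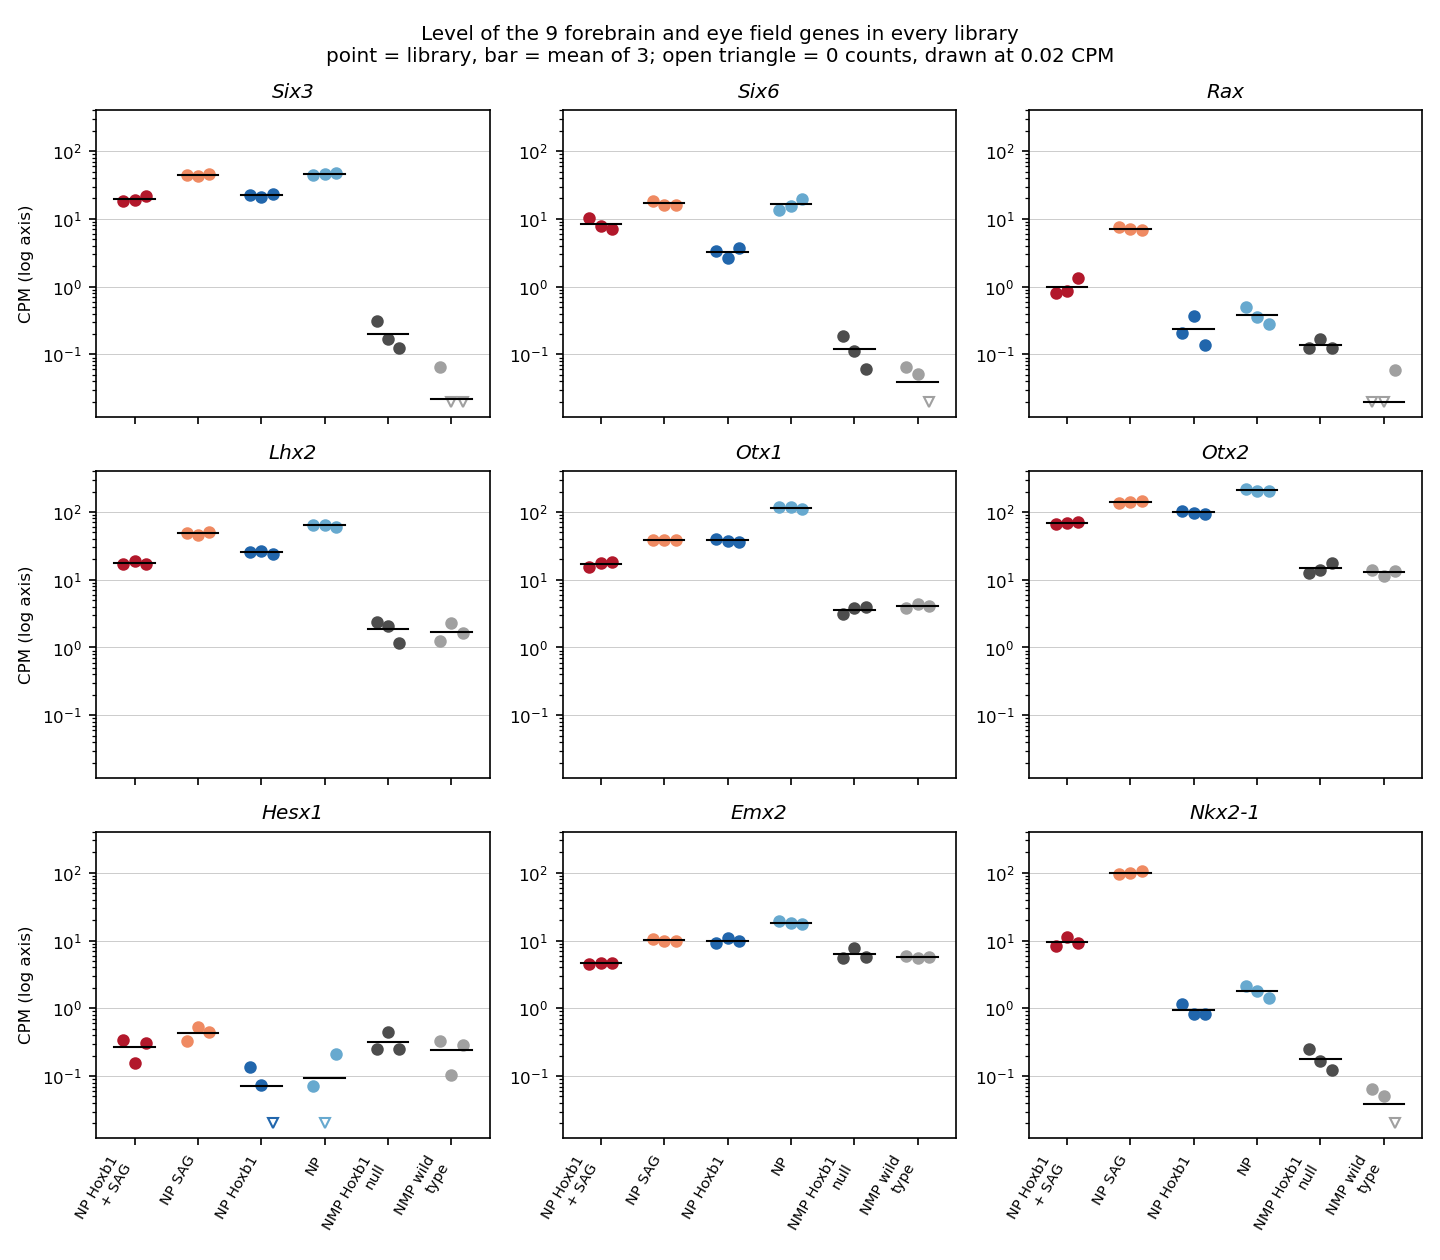
CPM on a log axis in each of the 18 libraries for the 9 genes, 1 panel per gene, with groups from left to right Hoxb1 and SAG, SAG, Hoxb1, untreated, Hoxb1-null NMP and wild-type NMP. Points are libraries, bars are means of 3, and open triangles low in a panel are libraries with 0 counts. In every panel but those of Hesx1 and Emx2 the progenitor means lie above those of the NMPs, and Nkx2-1 and Rax are highest with SAG (100.4 and 7.16 CPM).

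Hoxb1 lowered nearly all of these genes. With SAG, all 8 tested genes were lower in progenitors with Hoxb1 than in progenitors without it, where 21.9% of the 16238 genes tested were lower, and the libraries were apart for all 8, against 26.4% of tested genes with lower, separate libraries. Of the 8, 7 fell at least 2-fold, against 2.37% of tested genes. Without SAG, 7 of 8 were lower, against 22.1% of tested genes, the libraries were apart for the same 7, against 26.9%, and 5 fell at least 2-fold, against 3.04%. Rax was the exception, at 0.238 ± 0.12 CPM with Hoxb1 against 0.380 ± 0.11 CPM in untreated progenitors. The median log2 fold change of the tested members was −1.16 with SAG and −1.06 without it, beside medians over all genes of 0.0012 and 0.0031. In bulk RNA, fewer cells of a type and less RNA per cell cannot be told apart.

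Markers of other cell types moved with Hoxb1 too, and their part in the falls was not tested. With SAG, the summed level of 7 neural progenitor markers was 1092 to 1164 CPM with Hoxb1 against 1485 to 1599 CPM without, and 5 of the 7 were lower. Among the 7, Hes5 fell 3.82-fold and Sox1 2.07-fold, whereas Sox2 was at 391 ± 13 CPM with Hoxb1 and SAG against 412 ± 3.3 CPM with SAG, and Nes at 269 ± 7.4 CPM against 279 ± 9.9 CPM. Without SAG, the neural progenitor sum was 2125 to 2165.8 CPM with Hoxb1 against 2194 to 2376 CPM untreated, with 4 markers higher and 3 lower. The sum of 8 neuron markers was higher with Hoxb1 in both settings, 1420 to 1482 CPM against 958 to 988 CPM with SAG (5 higher, 2 lower) and 2392 to 2537 CPM against 1600 to 1673 CPM without (8 higher). The 7 mesenchyme markers summed to 2130 to 2334 CPM with Hoxb1 and SAG against 2136 to 2171 CPM with SAG. The sums overlapped there, although 4 of the 7 were higher and 1 lower. Without SAG they summed to 961 to 994 CPM with Hoxb1 against 454 to 479 CPM untreated (5 higher, 1 lower). Other marker sums were lower with Hoxb1, as the members were. The 11 pluripotency markers summed to 392 to 429 CPM with Hoxb1 and SAG against 454 to 494 CPM with SAG (5 lower, 3 higher), and to 157 to 185 CPM with Hoxb1 against 289 to 328 CPM untreated (9 lower, 0 higher). The NMP markers summed to 12.5 to 14.3 CPM against 33.3 to 35.9 CPM with SAG (2 of 6 tested lower, 0 higher). Most of that sum was T, at 9.91 ± 0.50 CPM against 29.8 ± 0.47 CPM. Without SAG the NMP sum was 8.73 to 9.06 CPM against 25.5 to 26.4 CPM (5 lower, 1 higher). The endoderm markers summed to 47.03 to 52.3 CPM against 79.6 to 80.2 CPM with SAG (2 of 7 tested lower, 1 higher). Most of the endoderm sum was Foxa1, at 37.9 ± 2.4 CPM against 68.9 ± 0.70 CPM. Over all tested genes 21.4% were higher and 21.9% lower with SAG, and 24.1% higher and 22.1% lower without. Of 6 markers of retinal pigment epithelium, the summed level reached at most 6.11 CPM in a progenitor library, and Tyr was at 0 counts in all libraries.

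**Figure D2:**
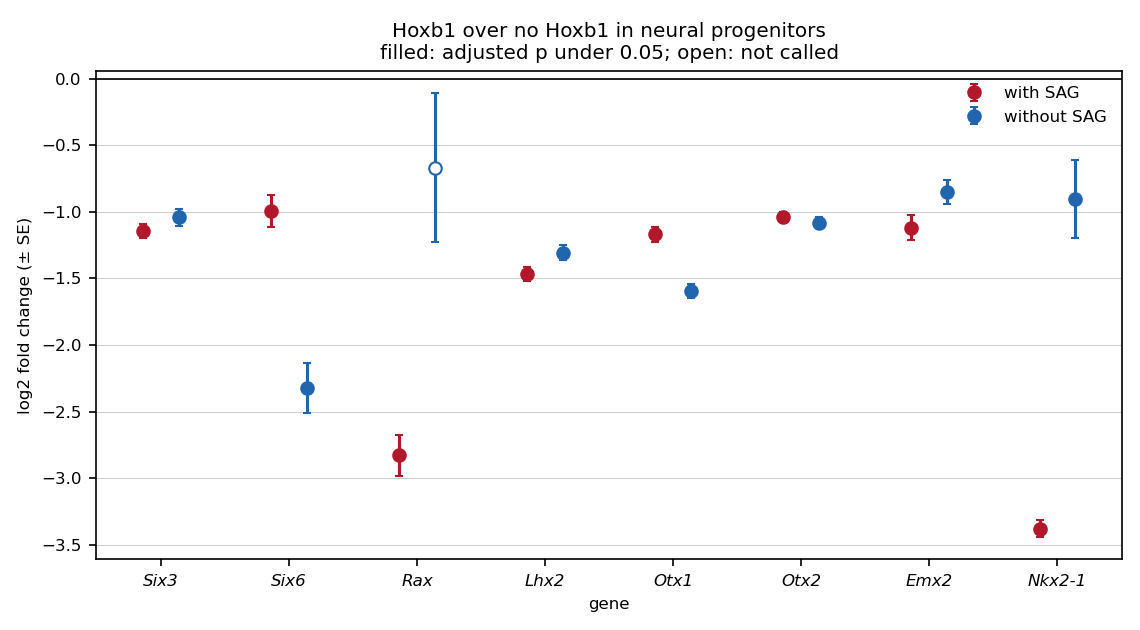
Log2 fold change of Hoxb1 over no Hoxb1 (y axis, ± SE) for the 8 tested genes, with SAG in red and without SAG in blue, each from 3 libraries per group, filled where called and open where not. All values lie below 0, Nkx2-1 (−3.38) and Rax (−2.83) fall farthest with SAG, and Six6 (−2.32) falls farthest without it.

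The size of the Hoxb1 effect differed between the SAG settings for 4 of the 8 tested genes by the test of the difference itself, where 35.5% of all tested genes differed. For a list of 8 genes that count is near the background. Nkx2-1 and Rax fell more with SAG than without, beside 18.6% of all genes with a more negative effect, and Six6 and Otx1 fell less, beside 16.8% with a more positive one. For Six3, Otx2, Lhx2 and Emx2 the difference was not called.

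SAG raised the ventral gene Nkx2-1 together with Rax and lowered Otx1, Emx2, Otx2 and Lhx2. Without Hoxb1, 2 members were higher with SAG, 4 were lower, and Six3 and Six6 were not called, where 36.5% of the tested genes were higher and 36.3% lower. Among progenitors with Hoxb1, Six6 joined the genes that were higher with SAG, 3 in all, and the other 5 were lower, where 36.4% were higher and 35.8% lower. Since 72.7% and 72.2% of all tested genes were called in these comparisons, the number of members called is near the background, and the sizes are given below gene by gene. The SAG comparison without Hoxb1 and the Hoxb1 comparison without SAG share the untreated libraries. Without Hoxb1, the neural progenitor sum was 1485 to 1599 CPM with SAG against 2194 to 2376 CPM untreated, the neuron sum 958 to 988 CPM against 1600 to 1673 CPM and the mesenchyme sum 2136 to 2171 CPM against 454 to 479 CPM. The endoderm sum was 79.6 to 80.2 CPM with SAG against 20.3 to 26.2 CPM untreated (6 of 7 markers higher) and the pluripotency sum 454 to 494 CPM against 289 to 328 CPM (6 of 11 higher, 1 lower). Among progenitors with Hoxb1, all 7 neural progenitor markers and 7 of 8 neuron markers were lower with SAG, and 11 of 11 pluripotency, 6 of 7 endoderm and 6 of 7 mesenchyme markers were higher. The part of these shifts was not tested.

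**Figure D3:**
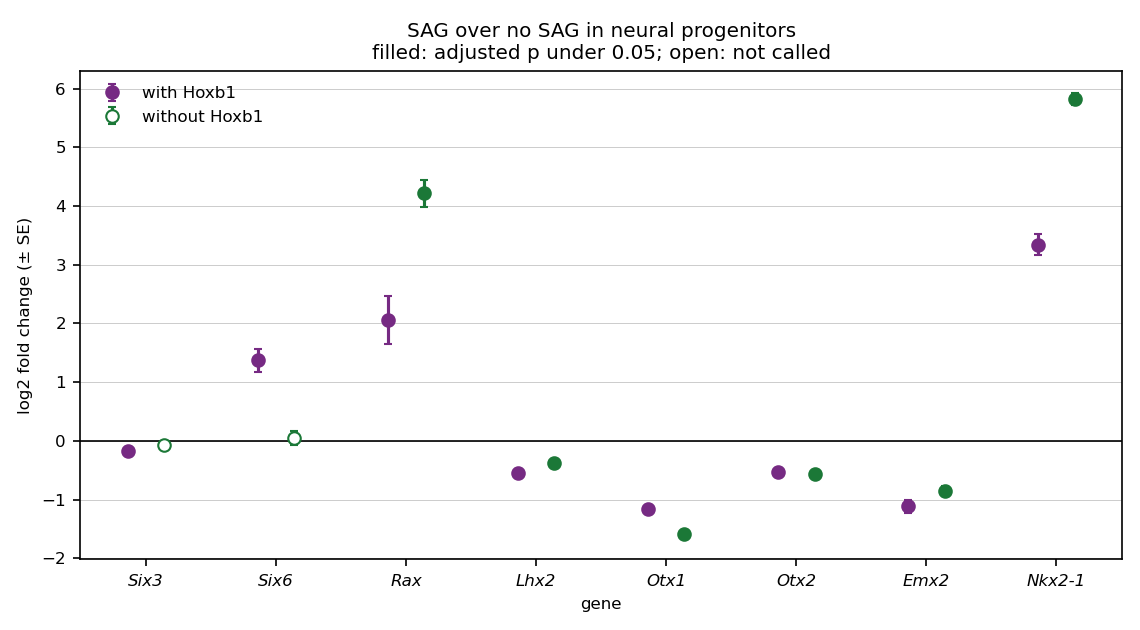
Log2 fold change of SAG over no SAG (y axis, ± SE) for the 8 tested genes, with Hoxb1 in purple and without Hoxb1 in green, each from 3 libraries per group. Nkx2-1 (3.34 with Hoxb1, 5.82 without) and Rax (2.06 and 4.22) lie far above 0 while Otx1 (−1.16 and −1.59) and Emx2 (−1.12 and −0.85) lie below it.

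Six3 (ENSMUSG00000038805, mm10 chromosome 17, 85613608 to 85631813, plus strand), which represses Wnt genes in the anterior neural plate and is needed for forebrain and eye, had 18.6, 19.2 and 21.7 CPM with Hoxb1 and SAG, against 42.9, 44.0 and 45.4 CPM with SAG. Without SAG it had 20.9, 22.4 and 23.4 CPM with Hoxb1, against 43.9, 46.5 and 48.0 CPM in untreated progenitors. All 6 libraries with Hoxb1 lay below all 6 without it. The fall was 2.21-fold with SAG (log2 −1.14, SE 0.055, edgeR adjusted p = 4.22e-21) and 2.06-fold without (log2 −1.04, SE 0.064, edgeR adjusted p = 1.76e-17). The effects differed by −0.10 on the log2 scale (SE 0.086, edgeR adjusted p = 0.393). SAG by itself left Six3 at overlapping levels (log2 −0.066, SE 0.053, edgeR adjusted p = 0.260). In the presence of Hoxb1 it was called lower with SAG by a small margin (log2 −0.17, SE 0.068, edgeR adjusted p = 0.0268), with overlapping libraries. That call was lost when either of 2 libraries with Hoxb1 and SAG or either of 2 with Hoxb1 was left out.

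The locus of Six3 also holds Six3os1, a transcript on the opposite strand that overlaps the annotated gene. Six3os1 was lower with Hoxb1 as well, at 57.2 ± 3.6 CPM against 99.8 ± 4.0 CPM with SAG and 76.8 ± 2.9 CPM against 176 ± 5.6 CPM without. It was also lower with SAG in the absence of Hoxb1 (log2 −0.82, SE 0.039, edgeR adjusted p = 5.19e-21), where Six3 was not called. How the authors' counting treated strand is not stated, so reads of the pair may not be fully separate.

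Six6 (ENSMUSG00000021099, chromosome 12, 72939724 to 72946094, plus strand), a close relative of Six3 that sustains growth of the retina and pituitary, had 7.20, 7.91 and 10.3 CPM with Hoxb1 and SAG, against 16.0, 16.1 and 18.5 CPM with SAG. In the cultures without SAG the levels were 2.67, 3.34 and 3.67 CPM with Hoxb1, against 13.6, 15.7 and 19.6 CPM untreated. The groups were apart in both settings, and with Hoxb1 alone 19.8% of the untreated level was left, the smallest share among the 9 genes in that setting. Six6 fell 1.99-fold with SAG (log2 −0.99, SE 0.12, edgeR adjusted p = 2.89e-06) and 5.0-fold without (log2 −2.32, SE 0.19, edgeR adjusted p = 1.12e-08). The fall was smaller with SAG by 1.33 on the log2 scale (SE 0.23, edgeR adjusted p = 0.00023). Read the other way, SAG raised Six6 2.59-fold among progenitors with Hoxb1 (edgeR adjusted p = 7.03e-06), and without Hoxb1 the change was not called (log2 0.046, SE 0.12, edgeR adjusted p = 0.743). 4930447C04Rik, which overlaps Six6 on the opposite strand, averaged 4.90 CPM with Hoxb1 and SAG against 6.48 CPM with SAG, and 3.85 CPM with Hoxb1 against 6.78 CPM untreated. On the per-kilobase scale Six6 stood at 0.697 ± 0.18 of Six3 with Hoxb1 and SAG, 0.619 ± 0.053 with SAG, 0.233 ± 0.024 with Hoxb1 and 0.568 ± 0.081 in untreated progenitors (SD, n = 3 each).

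Rax (ENSMUSG00000024518), the retina and anterior neural fold homeobox gene without which no eye forms, had 0.809, 0.849 and 1.32 CPM with Hoxb1 and SAG, against 6.90, 7.10 and 7.49 CPM with SAG. Without SAG it had 3, 5 and 2 counts with Hoxb1, against 7, 5 and 4 counts untreated. Rax was thus well detected with SAG, and the libraries without SAG overlapped at a few counts each. SAG raised it 18.6-fold without Hoxb1 (log2 4.22, SE 0.23, edgeR adjusted p = 1.17e-19) and 4.16-fold with Hoxb1 (log2 2.06, SE 0.40, edgeR adjusted p = 1.95e-05). Hoxb1 lowered it 7.10-fold with SAG (log2 −2.83, SE 0.16, edgeR adjusted p = 3.76e-19), which left 13.9% of the level. The Hoxb1 effect without SAG was not called (log2 −0.67, SE 0.56, edgeR adjusted p = 0.346). The effects differed by −2.16 (SE 0.65, edgeR adjusted p = 0.0081), a call that was lost without replicate 2 of the Hoxb1 progenitors (−1.72, edgeR adjusted p = 0.119).

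Lhx2 (ENSMUSG00000000247, chromosome 2, 38339281 to 38369733, plus strand), a LIM homeobox gene needed for optic vesicle and cortex, had 16.9, 17.0 and 18.6 CPM with Hoxb1 and SAG, against 46.3, 49.4 and 50.2 CPM with SAG. Without SAG it had 24.3, 25.3 and 26.7 CPM with Hoxb1, against 60.5, 64.6 and 64.8 CPM untreated. None of these 4 groups overlapped another. Hoxb1 lowered Lhx2 2.77-fold with SAG (log2 −1.47, SE 0.054, edgeR adjusted p = 3.57e-25) and 2.47-fold without (log2 −1.31, SE 0.058, edgeR adjusted p = 3.23e-22), and the effects differed by −0.16 (SE 0.081, edgeR adjusted p = 0.122). SAG lowered it 1.45-fold with Hoxb1 and 1.30-fold without. Both agents together left 27.6% of the untreated level.

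Otx2 (ENSMUSG00000021848, chromosome 14, 48657679 to 48667644, minus strand), needed for forebrain and midbrain and for placing their posterior border, had 66.9, 68.3 and 70.2 CPM with Hoxb1 and SAG, against 137, 141 and 146 CPM with SAG. The cultures without SAG gave 92.9, 97.9 and 104 CPM with Hoxb1, against 204, 205 and 218 CPM untreated. The 4 groups formed separate steps with no overlap. Hoxb1 lowered Otx2 2.05-fold with SAG (log2 −1.04, SE 0.038, edgeR adjusted p = 2.96e-25) and 2.12-fold without (log2 −1.08, SE 0.039, edgeR adjusted p = 3.01e-25). The effects differed by 0.042 (SE 0.055, edgeR adjusted p = 0.591). SAG lowered Otx2 1.44-fold with Hoxb1 and 1.48-fold without.

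Otx1 (ENSMUSG00000005917, chromosome 11, 21994764 to 22002897, minus strand), a paralog of Otx2 with roles in cortex, eye and inner ear, had 15.4, 17.4 and 18.03 CPM with Hoxb1 and SAG, against 37.9, 38.4 and 38.6 CPM with SAG. Without SAG it had 36.0, 37.5 and 40.3 CPM with Hoxb1, against 111, 116 and 120 CPM untreated. Either agent alone gave overlapping levels, 38.3 ± 0.33 CPM with SAG and 38.0 ± 2.2 CPM with Hoxb1, and both together left 14.7% of the untreated level. Hoxb1 lowered it 2.25-fold with SAG (log2 −1.17, SE 0.056, edgeR adjusted p = 3.81e-21) and 3.02-fold without (log2 −1.60, SE 0.051, edgeR adjusted p = 2.56e-27), a difference of 0.43 (SE 0.077, edgeR adjusted p = 2.1e-05). SAG lowered it 2.24-fold with Hoxb1 and 3.01-fold without. On the per-kilobase scale the ratio of Otx1 to Otx2 was 0.155 ± 0.0092 with Hoxb1 and SAG, 0.170 ± 0.0040 with SAG, 0.242 ± 0.0016 with Hoxb1 and 0.346 ± 0.018 in untreated progenitors. The ratio was thus lower with either agent than in the untreated libraries. Ehbp1, 2931 bases from Otx1, was also lower with Hoxb1, by smaller log2 changes of −0.13 with SAG and −0.38 without.

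Hesx1 (ENSMUSG00000040726, chromosome 14, 27000362 to 27002329, plus strand), a repressor needed for forebrain and pituitary, was close to undetected and was removed from every fit. It had 8, 4 and 8 counts with Hoxb1 and SAG, against 8, 15 and 11 counts with SAG. The libraries without SAG held 2, 1 and 0 counts with Hoxb1, against 1, 0 and 3 counts untreated. In CPM the 3 SAG libraries lay above the 3 untreated ones, and the ratio over the summed counts was 4.66 with a 95% exact interval of 1.66 to 18.1. With the low-count filter left out it was called higher with SAG (log2 2.17, SE 0.66, edgeR adjusted p = 0.00268). For Hoxb1 the ratios were 0.603 (0.329 to 1.08) with SAG and 0.743 (0.109 to 4.39) without, and both intervals include a ratio of 1.

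Emx2 (ENSMUSG00000043969, chromosome 19, 59458690 to 59465357, plus strand), which patterns the dorsal telencephalon, had 4.47, 4.63 and 4.67 CPM with Hoxb1 and SAG, against 9.81, 9.85 and 10.4 CPM with SAG. Without SAG it had 9.21, 9.75 and 10.98 CPM with Hoxb1, against 17.3, 17.9 and 19.1 CPM untreated. As for Otx1, the groups with SAG alone and with Hoxb1 alone overlapped. Hoxb1 lowered Emx2 2.17-fold with SAG (log2 −1.12, SE 0.094, edgeR adjusted p = 2.56e-13) and 1.8-fold without (log2 −0.85, SE 0.090, edgeR adjusted p = 1.37e-10), and the effects differed by −0.27 (SE 0.13, edgeR adjusted p = 0.113). SAG lowered it 2.17-fold with Hoxb1 and 1.8-fold without. With both agents all 3 libraries lay below the 6 NMP libraries (5.49 to 7.81 CPM in null NMPs and 5.58 to 5.96 CPM in wild-type NMPs), which held for no other of the 9 genes.

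Nkx2-1 (ENSMUSG00000001496, chromosome 12, 56531935 to 56536908, minus strand), the ventral forebrain and hypothalamic factor, had 8.30, 9.27 and 11.2 CPM with Hoxb1 and SAG, against 96.0, 101 and 104 CPM with SAG. In progenitors without SAG the values were 0.816, 0.830 and 1.16 CPM with Hoxb1, against 1.403, 1.796 and 2.14 CPM untreated. The 4 groups were apart, with the SAG libraries far above the rest. SAG raised Nkx2-1 56.4-fold without Hoxb1 (log2 5.82, SE 0.10, edgeR adjusted p = 1.13e-34) and 10.2-fold with Hoxb1 (log2 3.34, SE 0.18, edgeR adjusted p = 7.49e-19). Hoxb1 lowered it 10.4-fold with SAG (log2 −3.38, SE 0.063, edgeR adjusted p = 4.05e-33), the largest fall among the tested members in either Hoxb1 comparison, which left 9.54% of the level. The fall without SAG was 1.87-fold (log2 −0.91, SE 0.29, edgeR adjusted p = 0.0105), on 11 to 17 counts with Hoxb1 against 20 to 30 counts untreated. That call was lost without replicate 1 of the untreated progenitors (log2 −0.76, edgeR adjusted p = 0.0609). The effects differed by −2.47 (SE 0.35, edgeR adjusted p = 3.02e-07).

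Nkx2-9, a homeobox gene of the ventral neural tube that lies 74481 bases from Nkx2-1, shared its rise with SAG but not its fall with Hoxb1. It stood at 37.7 ± 2.2 CPM with Hoxb1 and SAG against 1.27 ± 0.18 CPM with Hoxb1, and at 26.7 ± 1.2 CPM with SAG against 0.924 ± 0.38 CPM untreated. Among progenitors with SAG it was higher with Hoxb1 (log2 0.50, SE 0.057, edgeR adjusted p = 9.03e-10), where Nkx2-1 was lower. With SAG, 1 of the 4 hedgehog feedback genes tested was higher with Hoxb1 and 0 lower, beside 21.4% and 21.9% of all tested genes. Without SAG 0 were higher and 4 lower, beside 24.1% and 22.1%. Among progenitors with SAG, Ptch1 was at 597 ± 12 CPM with Hoxb1 against 604 ± 9.8 CPM without (log2 −0.012, SE 0.038, edgeR adjusted p = 0.828), and Gli1 was higher with Hoxb1, at 180 ± 18 CPM against 138 ± 10 CPM. Foxa1, an endoderm marker that is also expressed in floor plate, fell to 37.9 ± 2.4 CPM with Hoxb1 and SAG, against 68.9 ± 0.70 CPM with SAG. Its relative Foxa2 was at 96.4 ± 2.3 CPM with Hoxb1 and SAG against 79.1 ± 2.1 CPM with SAG, and the ligand gene Shh at 69.4 ± 0.69 CPM against 139.6 ± 7.5 CPM, both named after their values were seen. The part of these changes in the fall of Nkx2-1 was not tested.

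Across the 12 neural progenitor libraries some members followed a like course. Pearson's r of log2(CPM + 0.5) was 0.982 between Otx2 and Lhx2, 0.975 between Otx1 and Emx2, 0.964 between Six3 and Lhx2, and 0.978 between Rax and Nkx2-1. For Nkx2-1 it was −0.337 with Otx1 and 0.141 with Lhx2. The 12 points share 4 groups and the library sets, and these values only describe the course over those groups. The closest genes were sought with predicted genes, clone-named genes and genes without a symbol left out. Among the remaining genes averaging at least 5 CPM, the closest to Otx2 was Chac1, which encodes a glutathione-degrading enzyme (r = 0.993). Chac1 was at 6.80 CPM with Hoxb1 and SAG, 43.0 CPM with SAG, 17.6 CPM with Hoxb1 and 132 CPM untreated. Nr2e1, an orphan nuclear receptor of forebrain and retinal progenitors, was the gene most like Lhx2 (r = 0.988) and among the 3 most like Six3 (r = 0.980), at 8.94 CPM with Hoxb1 and SAG, 22.5 CPM with SAG, 11.8 CPM with Hoxb1 and 26.4 CPM untreated. The closest match of Six3, Med7 (r = 0.986), spanned only 32.9 to 40.3 CPM over the 4 group means. Rax was closest to Pim2, a kinase gene (r = 0.991), and Nkx2-1 to Foxh1, a Nodal pathway factor (r = 0.992). Otx1 was closest to Gse1 (r = 0.994), Six6 to Il6st (r = 0.990) and Emx2 to Tmod2 (r = 0.993).

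NMPs were used to ask what loss of Hoxb1 does where Hoxb1 is on. Of the 4 members that passed the filter there, 0 were called by edgeR's quasi-likelihood test at an adjusted p under 0.05, 0 had an unadjusted p under 0.05 and 0 were called by DESeq2, where edgeR called 28.8% of the 15032 tested genes. Otx2 had 12.5, 14.1 and 17.9 CPM in null NMPs, against 11.3, 13.4 and 13.8 CPM in wild-type NMPs (log2 0.21, SE 0.12, edgeR adjusted p = 0.183). Otx1 averaged 3.61 ± 0.46 CPM in null against 4.13 ± 0.29 CPM in wild-type NMPs (log2 −0.20, SE 0.15, edgeR adjusted p = 0.358). The libraries of both genotypes overlapped for all 4. For Lhx2 the means were 1.88 ± 0.63 CPM in null and 1.71 ± 0.52 CPM in wild-type NMPs (log2 0.10, SE 0.26, edgeR adjusted p = 0.815), and for Emx2 they were 6.34 ± 1.3 CPM in null and 5.75 ± 0.20 CPM in wild-type NMPs (log2 0.15, SE 0.14, edgeR adjusted p = 0.446).

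The other 5 members had few reads in NMPs, and each had more of them in the null libraries. Six3 had 5, 3 and 2 counts in null NMPs against 1, 0 and 0 in wild-type NMPs, a ratio of 10.4 with an exact 95% interval of 1.47 to 450. Nkx2-1 had 9 counts in null against 2 in wild-type NMPs (ratio 4.66, 0.965 to 44.4), Rax 7 against 1 (7.26, 0.932 to 327), Six6 6 against 2 (3.11, 0.556 to 31.5) and Hesx1 16 against 12 (1.38, 0.613 to 3.20). For Six3, Rax and Nkx2-1 the CPM ranges of the genotypes were apart, on 0 to 5 counts per library. Among genes that passed the filter, 21.6% had null libraries that all lay higher. Six3, Rax and Nkx2-1 did not pass it, so that share is not a background for them. The fit over all 18 libraries kept Six3, Rax, Nkx2-1 and Six6, which passed its filter only through the neural progenitor libraries. Its result for them in NMPs rests on these few counts and cannot decide whether the null genotype had an effect. In that fit Six3 was called higher in null NMPs (log2 2.99, SE 0.98, edgeR adjusted p = 0.0165). Rax, Nkx2-1 and Six6 were not called (edgeR adjusted p = 0.0709, 0.0915 and 0.386). In the NMP libraries without a low-count filter Six3 was not called (edgeR adjusted p = 0.0578). Several marker sums were apart between the genotypes. The null libraries had higher sums of 11 pluripotency markers (930 to 1127 CPM against 790 to 853 CPM) and of endoderm markers (90.7 to 114 CPM against 68.9 to 73.2 CPM, with 4 of 5 tested higher). They had lower sums of 8 NMP markers (1414 to 1478 CPM against 1571 to 1757 CPM), of placode markers (493 to 575 CPM against 637 to 673 CPM), of neuron markers (264 to 280 CPM against 298 to 312 CPM) and of mesenchyme markers (311.5 to 328 CPM against 331 to 339 CPM). Gene by gene, 8 of 8 tested NMP markers were lower in null NMPs, and of 5 tested placode markers 2 were lower and 1 higher. Of 8 neuron markers 2 were higher and 2 lower, and of 7 mesenchyme markers 4 were higher and 2 lower. Over all tested genes 14.9% were higher and 13.9% lower. The part of these marker shifts was not tested.

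Other forebrain and eye genes moved in both directions. Of 29 on a supporting list, all tested, 18 were lower and 6 higher with Hoxb1 in the presence of SAG (median log2 −0.57), and 18 were lower and 5 higher without SAG (median −0.44). Over all tested genes 21.9% were lower and 21.4% higher with SAG, and 22.1% lower and 24.1% higher without it. With SAG the falls included Dlx2 (16.5 ± 1.7 CPM with Hoxb1 against 66.8 ± 2.3 CPM) and Dlx5 (5.26 ± 0.83 CPM against 19.1 ± 0.52 CPM), telencephalic genes that mark GABAergic precursors. Without SAG they included Tbr1, a factor of cortical neurons (9.55 ± 0.70 CPM with Hoxb1 against 51.0 ± 2.4 CPM), and Lhx9 (7.65 ± 0.86 CPM against 35.2 ± 3.8 CPM). In NMPs 15 of the 29 were tested, and 7 were higher and 1 lower in null cells, beside 14.9% and 13.9% of all genes. Tbx3 rose (32.2 ± 1.2 CPM in null against 16.7 ± 0.39 CPM in wild-type NMPs), as did Foxd1 (2.09 ± 0.34 CPM against 1.15 ± 0.40 CPM), Sp8 fell (44.8 ± 3.5 CPM against 54.5 ± 2.6 CPM), and the other 5 called genes were under 1 CPM.

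Genes of more posterior brain were set beside them under the same contrasts. Of 12 tested hindbrain genes, 10 were higher and 1 lower with Hoxb1 in the presence of SAG, and 10 higher and 0 lower without it, beside 21.4% and 24.1% of all tested genes higher. Among them Hoxa2, a Hox gene of the hindbrain, stood at 20.8 ± 1.8 CPM with Hoxb1 against 1.71 ± 0.39 CPM untreated. Of 12 midbrain and isthmus genes, 7 were higher and 3 lower with Hoxb1 in the presence of SAG, and 3 higher and 7 lower without it. Of all tested genes 21.9% were lower with Hoxb1 in the presence of SAG and 22.1% without it. Pax2, which marks the isthmus, rose with Hoxb1 in both settings (4.13 ± 0.20 CPM against 0.539 ± 0.21 CPM with SAG, 21.4 ± 1.2 CPM against 3.88 ± 0.25 CPM without). Without SAG it was among the 3 that rose while 7 fell, and the list median was log2 −0.67, against 0.20 with SAG.

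**Figure D4:**
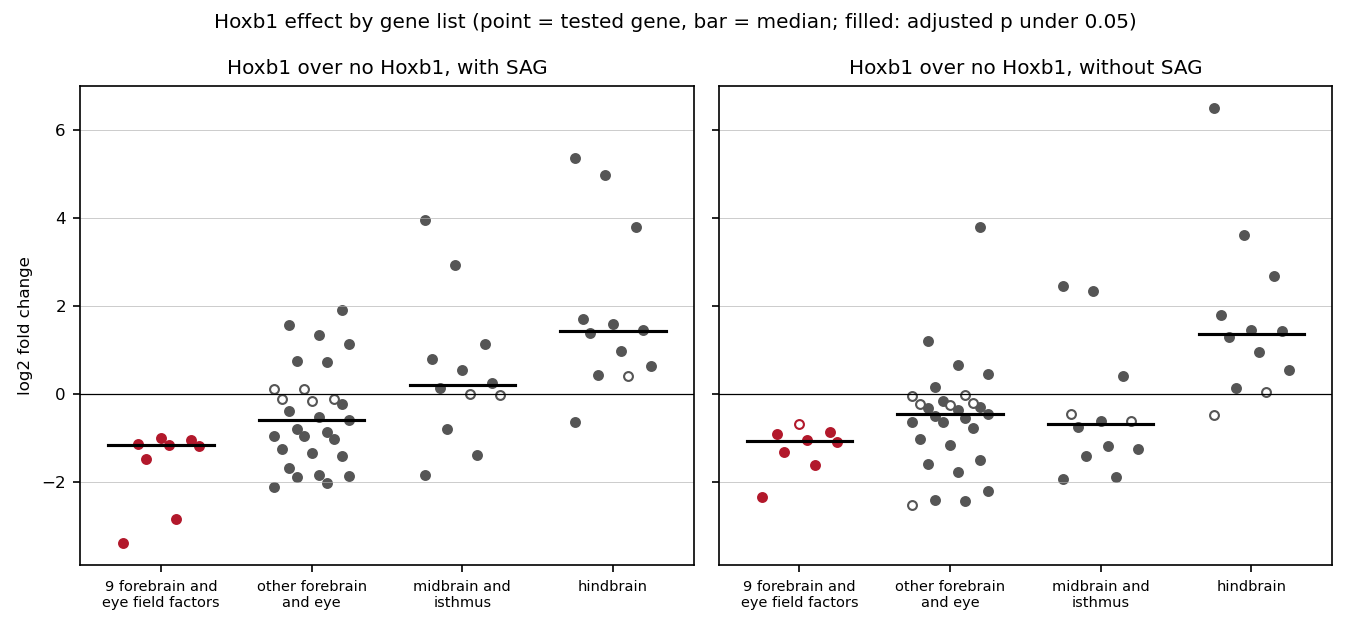
Log2 fold change of Hoxb1 over no Hoxb1 (y axis) with SAG (left) and without SAG (right) for the tested genes of 4 lists, 1 point per gene (filled where called, open where not) with the list median as a bar. Points of the 9 forebrain and eye field factors (8 tested) all lie below 0 in both panels, while the other forebrain and eye list (29 genes) spreads to both sides and the hindbrain list (12 genes) lies mostly above 0.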

How the data were processed

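RNA was measured in 18 libraries (6 groups of 3), from poly(A)-selected RNA with a directional kit per the labels' protocols. Per the submitters' processing notes, bcl2fastq 1.8.2 and featureCounts 1.4.6 were used, with build mm10. The authors deposited 1 table of raw counts for 37224 Ensembl genes, not normalized. Which aligner, annotation release and strand setting were used is not stated. Gene symbols were matched by gene ID for 35449 genes and missing for 1775.

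Tests used edgeR 4.0.16 under R 4.3.3: filterByExpr by group, TMM scaling and robust quasi-likelihood F-tests, adjusted by Benjamini-Hochberg over each fit's genes, with calls at an adjusted p under 0.05. The 12 neural progenitor libraries were fitted together (16238 genes), the 6 NMP libraries alone (15032 genes), and all 18 for progenitors against NMPs (16761 genes), giving 7 comparisons. The SE is the log2 fold change divided by the square root of F. Levels are CPM, mean ± SD of 3 libraries. Intervals are exact (Clopper-Pearson). The procedure was tested on simulated data. Replicates differed by more than sampling noise in all 18 pairs (chi-square per gene 1.33 to 4.77), so none was counted as a duplicate. The 9 members, the supporting lists and the rule for named genes (members, check genes, the called genes of at least 1 CPM with the largest change in each list, nearest neighbours and closest correlates) were chosen with earlier results of these data known. Some genes that the rule names are not reported here. Alternatives were DESeq2 1.42.0, other scalings and filters, a replicate block, other sets of libraries and leaving out each library.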

Additional observations from a re-analysis of the deposited data

Results flagged for a closer look

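For 4 of the 8 tested genes the Hoxb1 effect differed between progenitors with SAG and progenitors without SAG by the test of the difference (effect with SAG minus effect without SAG, edgeR's quasi-likelihood test, adjusted p under 0.05), beside 35.5% of all tested genes. The count is near that background, and the sizes are given gene by gene. Nkx2-1 fell more with SAG, with a difference of −2.47 on the log2 scale (SE 0.35). For Rax the difference was −2.16 (SE 0.65), with 2 to 7 counts per library in the progenitors without SAG. Six6 fell less with SAG, with a difference of 1.33 (SE 0.23), and Otx1 fell less by 0.43 (SE 0.077). SAG and the library set cannot be told apart in these differences.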

How the results depend on the processing

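Of 1042 results for single members under another setting, 1027 kept their direction and their side of the threshold, 9 lost a call, 1 gained a call and 5 changed sign. The 5 that changed sign were uncalled: Lhx2 in NMPs (−0.069 without wild-type replicate 1, −0.10 without null replicate 1, at most 0.37 when each replicate was left out), Emx2 in NMPs (−0.034 without null replicate 2, at most 0.24) and Six6 with SAG in the absence of Hoxb1 (−0.022 without SAG replicate 1, −0.078 without untreated replicate 1, at most 0.20). The number of members called higher in null NMPs ranged from 0 to 1 when each replicate was left out (Otx2, log2 0.31, edgeR adjusted p = 0.0404, without null replicate 1) and was 1 with all 18 libraries (Six3). Six3 passed the filter of that fit only through the neural progenitor libraries. The number of members that fell more under SAG ranged from 1 to 2 when each replicate was left out. Six3 with SAG in the presence of Hoxb1 lost its call under upper-quartile scaling (edgeR adjusted p = 0.109), without the filter (0.052) and under DESeq2 (0.0565). The cause was not tested. Residuals of same-numbered libraries correlated by −0.0396 to 0.124, and in no pair of groups did every library correlate best with its own number, so the numbers were not taken as pairs. With the replicate block 7274 and 7613 genes were called for Hoxb1 with and without SAG, against 7045 and 7499 without the block, and no member's call changed. CPM without TMM factors moved 11 of 54 group levels by more than their SD. Depth limits Hesx1 in all groups, Rax without SAG, and Six3, Six6, Rax and Nkx2-1 in NMPs.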

Other observations

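Genes around the anterior program moved in parts. Of 12 tested Wnt antagonists and anterior Wnt receptors, 10 were higher and 2 lower with SAG, both with and without Hoxb1, beside 36.4% and 36.5% of all tested genes higher. Notum, a secreted enzyme that inactivates Wnt proteins, stood at 17.1 ± 1.5 CPM with Hoxb1 and SAG against 3.12 ± 0.17 CPM with Hoxb1, and at 17.5 ± 0.60 CPM with SAG against 1.87 ± 0.31 CPM untreated. With Hoxb1, 4 of the 12 were higher and 4 lower in the presence of SAG, beside 21.4% and 21.9% of all tested genes. Without SAG 5 were higher and 2 lower with Hoxb1, beside 24.1% and 22.1%. Sfrp2, a secreted Wnt antagonist, was at 240 ± 5.4 CPM with Hoxb1 against 73.1 ± 1.9 CPM untreated, and its relative Sfrp1 at 224 ± 4.3 CPM against 77.2 ± 4.9 CPM.

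Of 6 tested Groucho corepressors, partners of Six3 and Six6, 5 were higher and 1 lower with SAG, both with and without Hoxb1. Over all tested genes 36.4% were higher and 35.8% lower with SAG in the presence of Hoxb1, and 36.5% higher and 36.3% lower in its absence. With Hoxb1, 1 was higher and 1 lower in the presence of SAG, and 0 were higher and 3 lower without it. The one that was higher was Tle1, at 182 ± 5.1 CPM with Hoxb1 and SAG against 96.1 ± 2.7 CPM with SAG. Of 10 other Six and Eya network genes, 6 were higher and 1 lower with Hoxb1 in the presence of SAG, and 4 higher and 1 lower without it. Over all tested genes 21.4% were higher and 21.9% lower in the presence of SAG, and 24.1% higher and 22.1% lower without it. Eya2 stood at 8.15 ± 0.19 CPM with Hoxb1 and SAG against 2.57 ± 0.029 CPM with SAG. Six2, 52455 bases from Six3, was at 3.49 ± 0.39 CPM with Hoxb1 against 1.21 ± 0.26 CPM untreated, where Six3 was lower.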
